A study of Mus musculus with 12 samples.

Results

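The genes described here are 10 macrophage genes, namely Lyz1, Lyz2, Marco, Clec4d, Cybb, Cd68, Csf1r, Laptm5, Ptprc and Tyrobp. They were chosen by their signals from 18193 mouse genes with a probe set of their own on an Affymetrix array, because several of them were high on 1 of 12 arrays. That array held neurospheres derived from embryonic fibroblasts and grown with leukaemia inhibitory factor (LIF). Since the choice used these signals, the levels on this array are given below as a description without a test. Each gene was read from the probe set annotated to it alone with the highest mean signal over the 12 arrays, and all 10 were among the 13650 genes that reached a signal of 20 on at least 1 array. The deposited signal is in arbitrary units in which the trimmed mean of every array is 100, and different probe sets are not compared in level.

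The 12 arrays fell into 7 groups. Neurospheres are clusters in which neural stem cells grow in suspension. Those taken at embryonic day 14 from the ganglionic eminence (GE) of the forebrain had 1 array, as had skin fibroblasts of adults. Pluripotent cells comprised induced pluripotent stem (iPS) cells of the line 38C2 and embryonic stem (ES) cells of the line EB3, and from each line primary and secondary neurospheres were measured, with 1 array per stage. Neurospheres from adult fibroblasts were grown with EGF and cAMP (adult-derived replicate 1) or with LIF (adult-derived replicate 2). Those from embryonic fibroblasts were grown with LIF (embryonic-derived replicate 3) or with LIF and cAMP (embryonic-derived replicate 4). The series title speaks of directly induced neural stem cells, the factors used are not given in the labels, all neurospheres were kept in a medium named MHM, and the mice were C57BL/6 apart from the ES and iPS cells. Arrays of a group differ in line or medium and are not stated to be separate cultures, so the p-values reflect just how far these particular arrays lie apart.

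Macrophages are phagocytes of the innate immune system that depend on signals through the receptor Csf1r and are built under transcription factors such as PU.1 (Spi1). They take up particles with scavenger and lectin receptors, pass activating signals through adaptors such as Tyrobp, make superoxide with an oxidase that contains Cybb, and degrade cargo in lysosomes rich in lysozyme and Cd68. In the brain the resident macrophages are microglia, which arise outside the neural lineage.

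On each array 40.5% to 49.1% of probe sets were at 20 or above. The trimmed mean was set equal, but the median signal was not. It ran from 11.1 in ES cells and 11.4 in adult fibroblasts to 18.9 in secondary neurospheres from ES cells, with 16.3 on embryonic-derived replicate 3. No pair of arrays of a group shared more than 1.40% of its signals. Across genes the pairs correlated at r = 0.930 to 0.975, with the highest value for the embryonic-derived pair. The labels were set against summed signals of defining markers. A list of 8 fibroblast genes read 36280.2 in adult fibroblasts, a list of 7 pluripotency genes 19254.2 and 19755.7 in iPS and ES cells, and a list of 8 neural stem cell genes 17432.7 in GE neurospheres. On the arrays labelled as embryonic-derived neurospheres the pluripotency list read 11316.6 (replicate 3) and 11704.4 (replicate 4), and the neural list 2177.9 and 2393.9. The iPS and ES cells read more on the neural list, at 3514.9 and 3541.5. Sox2, at 3352.6 and 3417.7 in iPS and ES cells, made up most of the embryonic-derived neural sums, at 1825.8 and 2092.3. Every gene of the neural list was lower on both embryonic-derived arrays than in GE neurospheres. Pou5f1, a core pluripotency factor, read 2217.8 and 1981.2 on the embryonic-derived arrays and 0.7 in GE neurospheres, so these markers go against a purely neural label on both arrays. The same held for the adult-derived neurospheres, with 2506.4 and 7006.6 for the pluripotency list, 856.3 and 1612.2 for the neural list and 1787 and 2069.2 for Pou5f1 on replicates 1 and 2. Primary neurospheres from ES cells read 7975.8 for the pluripotency list, 9353.8 for the neural list and 1174.1 for Pou5f1. These arrays enter the tests below under their labels.

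On embryonic-derived replicate 3, 6 of the 10 genes were the highest of all 12 arrays, against 3.88% of all genes tested. The same 6 (Marco, Cybb, Clec4d, Tyrobp, Lyz2 and Lyz1) lay at least 4-fold above the next array on the scale log2(signal + 5), against 0.103% of all genes tested (14 of 13650). Both counts follow from the way the genes were chosen. They also count Lyz1 and Lyz2 separately, although Lyz1 was not resolved from Lyz2. The gene just inside the 4-fold line was Lyz1, with an excess of 2.02 on the log2 scale, and the gene just outside was Cd68, with -0.44. The other 4 genes peaked elsewhere, Csf1r in adult fibroblasts, Cd68 on embryonic-derived replicate 4, Laptm5 in iPS cells and Ptprc on adult-derived replicate 1. Embryonic-derived replicate 3 was the only array of the 12 on which all 10 genes reached 20, while 6 did so on embryonic-derived replicate 4, 4 in adult fibroblasts and 0 in GE neurospheres. In bulk RNA, fewer cells of a type and less RNA per cell cannot be told apart.

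**Figure D1:**
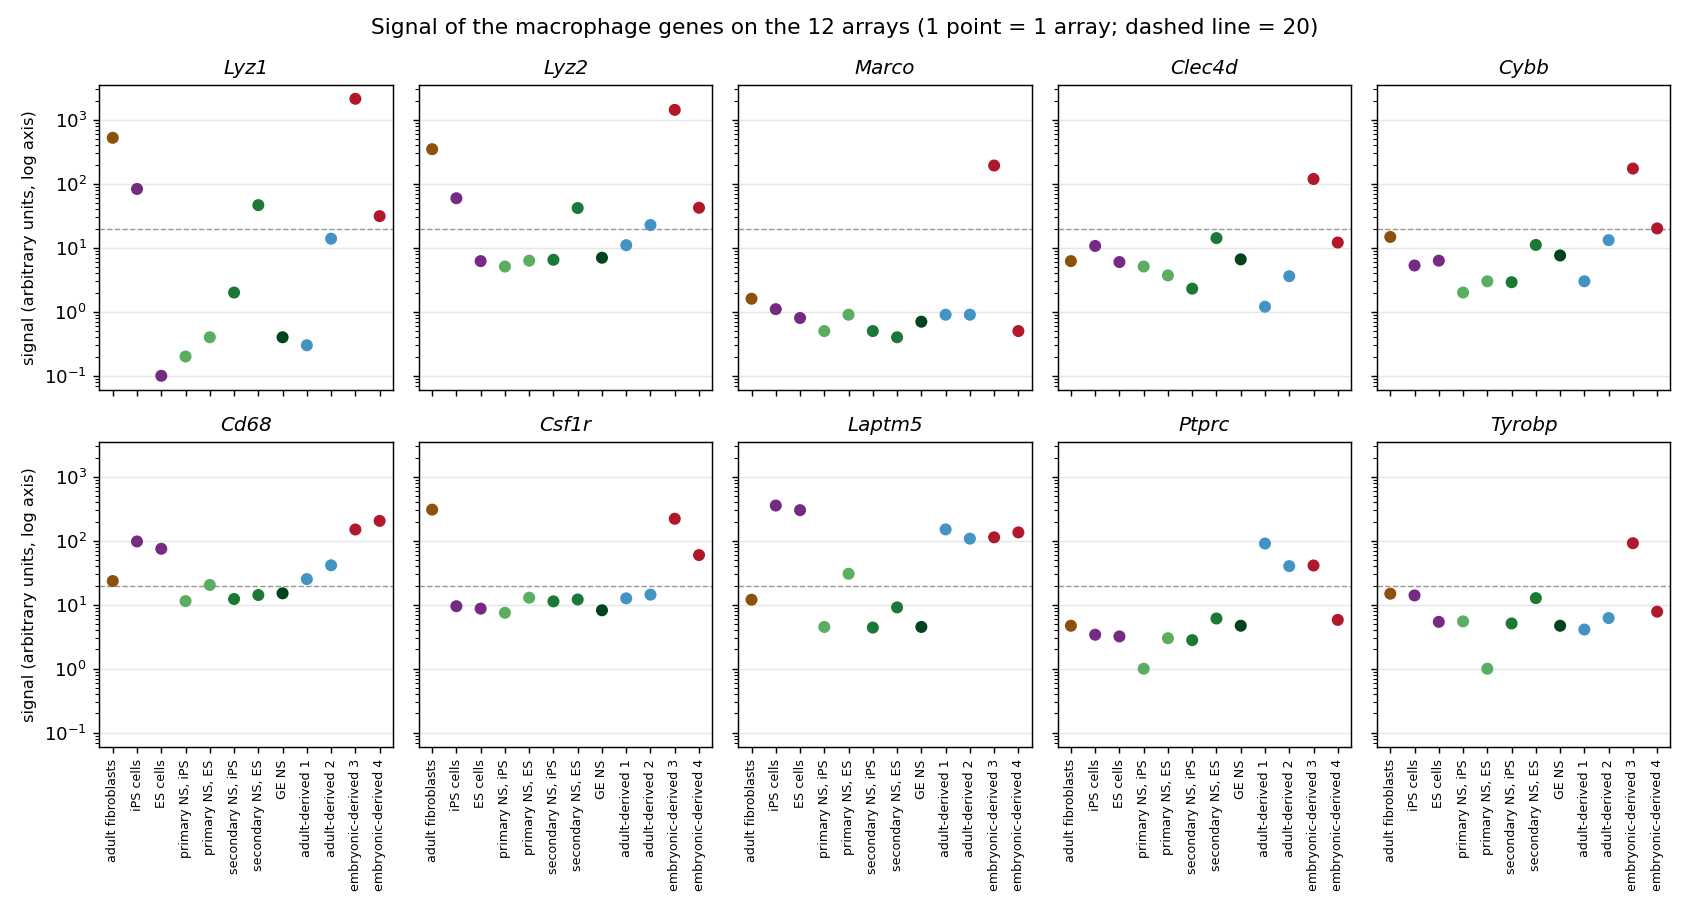
Signal of each of the 10 macrophage genes (vertical log axis, arbitrary units) on each of the 12 arrays (horizontal axis, NS for neurospheres), with 1 point per array, coloured by group, and a dashed line at 20. The point of embryonic-derived replicate 3 is the highest in 6 of the panels, from 91.7 for Tyrobp to 2136.8 for Lyz1.

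The lysozymes cut the peptidoglycan of bacterial cell walls. In mice Lyz2 is the form made by macrophages and neutrophils, and Lyz1 the form known from Paneth cells of the gut. The RefSeq promoter table (build GRCm38.p6, 8 of the 10 genes matched) places their starts 10596 bases apart on the minus strand of chromosome 10. The 150 bases before each start are shown because the probe sets read for these genes gave nearly the same profile over the arrays. Lyz1 was not resolved from Lyz2, as described below, so this likeness does not show that both genes were expressed. The capitals mark the match to AGGAAGT, a core of sites bound by PU.1, on the opposite strand, 100 bases before each start. The stretches lie at chr10:117292869-117293018 (Lyz1) and chr10:117282273-117282422 (Lyz2).
Lyz1: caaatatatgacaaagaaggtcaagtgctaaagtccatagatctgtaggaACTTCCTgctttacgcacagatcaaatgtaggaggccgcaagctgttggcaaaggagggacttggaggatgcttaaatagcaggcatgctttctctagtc
Lyz2: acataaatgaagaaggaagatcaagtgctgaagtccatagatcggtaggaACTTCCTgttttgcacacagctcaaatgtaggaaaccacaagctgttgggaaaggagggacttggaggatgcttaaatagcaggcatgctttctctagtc
Without gaps, 129 of the 150 positions were identical (86.0%).

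Lyz2 gave a signal of 1433.5 on embryonic-derived replicate 3 and 42.3 on replicate 4. It read 348.3 in adult fibroblasts, 59.6 in iPS cells and 6.2 in ES cells. The neurosphere arrays gave 7 (GE), 5.1 and 6.3 (primary, from iPS and ES cells), 6.5 and 41.9 (secondary, from iPS and ES cells) and 11 and 22.7 (adult-derived replicates 1 and 2). Lyz2 was thus high on embryonic-derived replicate 3, intermediate in adult fibroblasts and below 60 on the other 10 arrays. Its excess over the fibroblast array was 2.03 on the log2 scale.

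Lyz1 followed the same order at the top. Its signal was 2136.8 on embryonic-derived replicate 3, 524.2 in adult fibroblasts, 83.2 in iPS cells, 46.5 in secondary neurospheres from ES cells, 31.3 on embryonic-derived replicate 4 and 13.9 on adult-derived replicate 2. The other 6 arrays lay between 0.1 and 2. This reading is uncertain, because the probe set carries the Affymetrix suffix for probes that may also bind other transcripts (1436996_x_at) and Lyz2 is a near-identical copy. A further probe set of that class (1439426_x_at) gave 1931.1 on embryonic-derived replicate 3 and 187.2 in adult fibroblasts, whereas the probe set without that suffix (1450822_at) stayed between 0.7 and 10 on all 12 arrays, with 7.4 on embryonic-derived replicate 3. Signal of Lyz1 apart from Lyz2 was therefore not resolved on these arrays. Without the fibroblast array the excess was 4.48 for Lyz2 and 4.60 for Lyz1.

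Among the uptake receptors, Marco is a scavenger receptor with a collagen-like stalk that binds bacteria and particles on subsets of macrophages. It gave 193.5 on embryonic-derived replicate 3 and 0.5 on replicate 4. The remaining signals were 1.6 in adult fibroblasts, 0.7 in GE neurospheres, 1.1 and 0.8 in iPS and ES cells, 0.5 and 0.9 in their primary and 0.5 and 0.4 in their secondary neurospheres, and 0.9 on both adult-derived arrays. No other array came near the filter of 20, and the excess of 4.91 on the log2 scale ranked 1 among the 13650 genes. Its second probe set (1458297_s_at) read 72.9 on embryonic-derived replicate 3 and at most 7.1 elsewhere, an excess of 2.69. The 160 bases before its start, on the minus strand at chr1:120505025-120505184, are shown because this gene had the largest excess, with capitals on GAGGAA, a shorter purine-rich run.
Marco: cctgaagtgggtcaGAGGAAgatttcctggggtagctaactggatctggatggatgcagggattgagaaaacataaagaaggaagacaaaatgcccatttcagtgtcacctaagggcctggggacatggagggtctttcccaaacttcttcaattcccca

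Clec4d, a C-type lectin receptor of myeloid cells that recognises mycobacterial glycolipid, gave 119.1 on embryonic-derived replicate 3. The next arrays were secondary neurospheres from ES cells at 14.2, embryonic-derived replicate 4 at 12.1 and iPS cells at 10.7. The other 8 arrays read 1.2 to 6.6, with 6.2 in adult fibroblasts. Only embryonic-derived replicate 3 passed 20, and the excess of 2.69 ranked 3 among the genes tested.

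Csf1r, the receptor for the growth factors Csf1 and Il34, showed another order. Its signal was 306.9 in adult fibroblasts, 220.9 on embryonic-derived replicate 3 and 59.8 on embryonic-derived replicate 4. The other 9 arrays read 7.5 to 14.4. All 3 of its probe sets were highest in adult fibroblasts, at 306.9, 86.7 and 77.9. Embryonic-derived replicate 3 came second on each, at 220.9, 64.1 and 36.1. Its excess was therefore -0.47, and 1.80 without the fibroblast array.

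Tyrobp (also DAP12) is the adaptor that carries the activation motif for receptors such as Trem2. It gave 91.7 on embryonic-derived replicate 3 and 7.8 on replicate 4. The highest of the other arrays were adult fibroblasts at 14.9, iPS cells at 14 and secondary neurospheres from ES cells at 12.7, and the remaining 7 read 1 to 6.2. The gap to the next array was 2.28 on the log2 scale, and again 1 array alone passed 20.

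Ptprc (CD45), the receptor phosphatase on nucleated blood cells, was highest on adult-derived replicate 1 at 90.6. Embryonic-derived replicate 3 gave 41.1 and adult-derived replicate 2 gave 40.2. The other 9 arrays read 1 to 6.1, among them embryonic-derived replicate 4 at 5.8 and adult fibroblasts at 4.7. Ptprc thus separated 3 of the 4 fibroblast-derived arrays from the rest. Its second probe set (1440165_at) stayed between 0.3 and 4.9 on all arrays.

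Cybb encodes the catalytic subunit of the phagocyte oxidase. It gave 173.6 on embryonic-derived replicate 3, 20.1 on replicate 4, 14.8 in adult fibroblasts, 13.2 on adult-derived replicate 2 and 11.1 in secondary neurospheres from ES cells. The other 7 arrays read 2 to 7.6. Its excess of 2.83 ranked 2 among the genes tested. The other probe sets were also highest on embryonic-derived replicate 3, at 40.9 and 36, with smaller excesses of 1.57 and 1.40, and with the mean of its probe sets the excess was 1.93, under the 4-fold line.

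The members of endosomes and lysosomes peaked on other arrays. Cd68, a heavily glycosylated membrane protein of late endosomes, gave 204.8 on embryonic-derived replicate 4 and 150.1 on replicate 3. It read 97.6 in iPS cells and 75 in ES cells, 41.4 and 25.2 on adult-derived replicates 2 and 1, 23.5 in adult fibroblasts and 20.4 in primary neurospheres from ES cells. The other 4 neurosphere arrays lay between 11.4 and 15.1. Cd68 was thus higher on both embryonic-derived and both pluripotent arrays than on the other 8.

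Laptm5, a lysosomal membrane protein of blood cells, gave 355.6 in iPS cells and 301.3 in ES cells. The 4 fibroblast-derived arrays followed at 150.6, 135.2, 113.3 and 108.1, with embryonic-derived replicate 3 at 113.3. Primary neurospheres from ES cells gave 30.5, adult fibroblasts 12, and the other 4 neurosphere arrays 4.4 to 9.1. The pluripotent and the fibroblast-derived arrays therefore all lay above the other 6. Of its 5 probe sets, 1447742_at ran differently, with its highest signal of 22.4 in secondary neurospheres from ES cells and 1.2 in iPS cells.

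**Figure D2:**
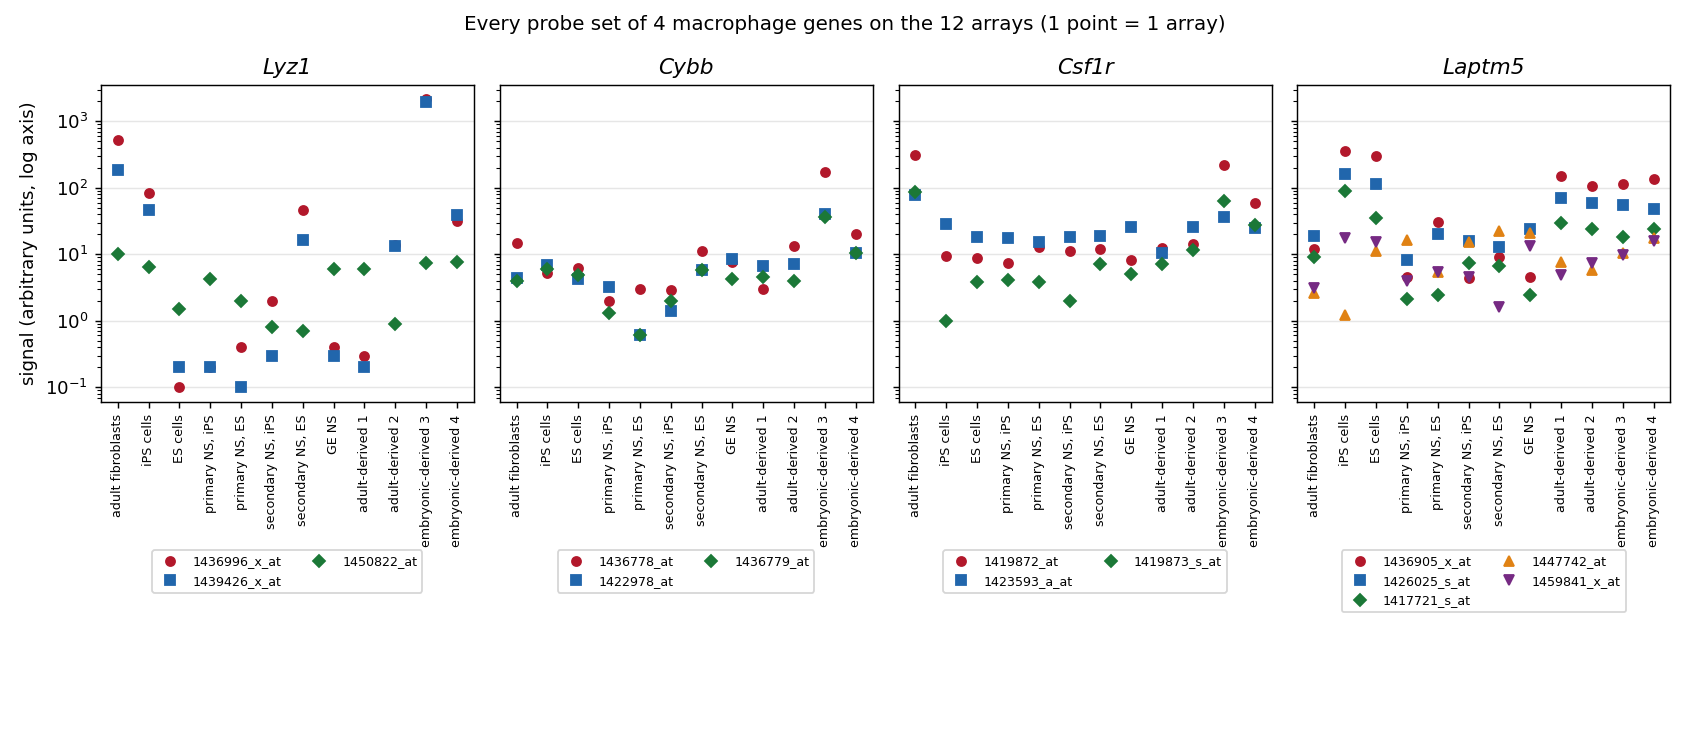
Signal of every probe set of Lyz1, Cybb, Csf1r and Laptm5 (vertical log axis, arbitrary units) on the 12 arrays, with 1 marker shape per probe set. For Lyz1 the probe set 1450822_at stays at or below 10 where 1436996_x_at reaches 2136.8, and all 3 probe sets of Csf1r are highest in adult fibroblasts.

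The 10 genes had 22 probe sets, of which 19 reached 20 and 8 lay 4-fold above every other array on embryonic-derived replicate 3. The same count was made with each array in turn in its place. Between 2 (secondary neurospheres from iPS cells) and 209 (adult fibroblasts) of the genes tested lay 4-fold above every other array, and none of the 10 macrophage genes did so on any array but embryonic-derived replicate 3. That outcome was largely set in advance by the choice of the genes. The 6 that were 4-fold highest on embryonic-derived replicate 3 cannot be so on another array. The 14 genes of embryonic-derived replicate 3 were neither the most nor the fewest, next to 10 on embryonic-derived replicate 4, 12 in primary neurospheres from iPS cells and 16 in secondary neurospheres from ES cells. With embryonic-derived replicate 4 left out, the 14 became 65 and the 6 macrophage genes stayed 6. With every array set to a common median the counts were 8 genes and 3 macrophage genes (Marco, Cybb and Clec4d), and with a pseudocount of 20 they were 3 and 3, the same macrophage genes.

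The embryonic-derived pair came from the same kind of cell and differed in the labels by cAMP. Of the 10 genes, 7 were at least 4-fold higher on replicate 3, against 0.227% of all genes tested (31 genes), and 0 were 4-fold lower, against 0.33%. These counts and the median below follow from the choice of the genes by their signals on replicate 3. They also count Lyz1 and Lyz2 separately, although the 2 were not resolved from each other. The differences on the log2 scale were 5.88 for Lyz1, 5.17 for Marco, 4.93 for Lyz2, 2.92 for Tyrobp, 2.86 for Clec4d, 2.83 for Cybb and 2.09 for Ptprc. Csf1r differed by 1.80, Laptm5 by -0.25 and Cd68 by -0.44. The median of the 10 was 2.85 and that of all genes -0.02. With 1 array on each side there is no replicate check and no p-value, and the effect of cAMP and any other difference between these 2 samples cannot be told apart.

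**Figure D3:**
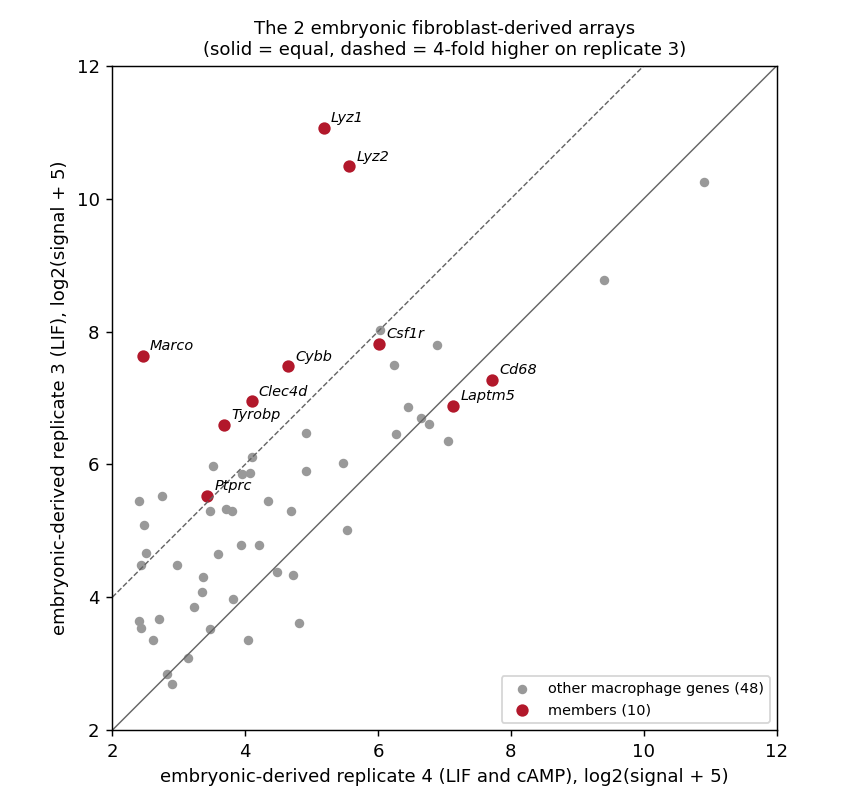
Each point is 1 gene, with its level on embryonic-derived replicate 4 on the horizontal axis and on replicate 3 on the vertical axis, both as log2(signal + 5). Red points are the 10 genes, grey points 48 other macrophage genes, the solid line marks equal levels and the dashed line a 4-fold higher level on replicate 3, which 7 of the red points pass.

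The other 11 arrays allowed tests of the same genes with embryonic-derived replicate 3 left out (limma, fitted over 13650 genes, called at a Benjamini-Hochberg adjusted p under 0.05). Differences are on the log2(signal + 5) scale with their standard errors, and this scale understates the change of dim genes. A group of 1 array took its spread from the groups of 2. The filter at 20 and the choice of probe set still used embryonic-derived replicate 3. Outside that array Marco, Clec4d and Tyrobp reached at most 1.6, 14.2 and 14.9, so they passed the filter through it alone. The same held for some list genes, such as Ccl3, at most 3.5 elsewhere. Such dim genes had little room to be called, which limits the comparison of the counts below with the shares of all genes.

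From pluripotent cells to their primary neurospheres, Laptm5 and Cd68 fell, 2 of the 10 genes against 22.2% of all genes in either direction and 6.43% of genes that fell. Laptm5 averaged 328 ± 38.4 (SD, n = 2) in pluripotent cells and 17.5 ± 18.4 (SD, n = 2) in primary neurospheres, a change of -4.18 ± 0.60 (adjusted p = 0.00431). Cd68 averaged 86.3 ± 16.0 (SD, n = 2) and 15.9 ± 6.36 (SD, n = 2), a change of -2.15 ± 0.39 (adjusted p = 0.00943). The arrays of the 2 groups did not overlap for either gene. They did not overlap for Clec4d, Cybb and Ptprc either, which were not called (adjusted p = 0.521, 0.486 and 0.705). With 2 arrays a side, a lack of overlap therefore adds little to the calls. Laptm5 fell on 3 of its 4 probe sets with signal, with changes from -2.92 to -4.18, and differed by 0.58 on 1447742_at (not called). Without the primary neurospheres from iPS cells Cd68 was no longer called (adjusted p = 0.0663) and the count of all genes went from 3035 to 896, and without the ES cell array to 1442.

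Between secondary and primary neurospheres limma called 0 of the 10 genes, against 0.923% of all genes, with 0 also at an unadjusted p under 0.05. The differences ran from -0.67 for Laptm5 to 1.84 for Lyz1, and the smallest adjusted p was 0.487. Between secondary and GE neurospheres limma also called 0 of 10, against 1.63% of all genes, with 0 at an unadjusted p under 0.05, differences of -0.16 to 1.81 and a smallest adjusted p of 0.701. The signals behind these values were mostly dim, with 8 of the 10 genes under 20 on both secondary arrays and all 10 under 20 in GE neurospheres. The exceptions were Lyz2 and Lyz1, at 41.9 and 46.5 in secondary neurospheres from ES cells and 6.5 and 2 in those from iPS cells. The calls over all genes depended on single arrays. Secondary against primary went from 126 genes to 0, 1 or 2 without either secondary or either primary array (0 without either array from iPS cells, 2 without the primary and 1 without the secondary array from ES cells), and to 61 or 67 without adult-derived replicate 1 or 2. Secondary against GE went from 223 to 11 and 9 without the secondary array from iPS and ES cells, to 70 without either adult-derived array, and to 116 and 119 without the iPS and ES cell arrays.

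Between adult fibroblasts and the neurospheres derived from them, 3 of the 10 genes changed, against 14% of all genes. Csf1r fell from 306.9 to 13.5 ± 1.27 (SD, n = 2), a change of -4.08 ± 0.42 (adjusted p = 0.00408), against 5.23% of all genes that fell, and it fell on all 3 probe sets, with changes from -1.91 to -4.08. Laptm5 and Ptprc rose, against 8.75% of all genes that rose. Ptprc went from 4.7 to 65.4 ± 35.6 (SD, n = 2), a change of 2.76 ± 0.56 (adjusted p = 0.0208). Laptm5 went from 12 to 129 ± 30.1 (SD, n = 2), a change of 2.96 ± 0.74 (adjusted p = 0.039). Lyz2 (-4.07, adjusted p = 0.0512) and Lyz1 (-5.72, adjusted p = 0.0669) missed the threshold, with 348.3 and 524.2 in fibroblasts and 16.9 ± 8.27 and 7.1 ± 9.62 (SD, n = 2) in the derived neurospheres.

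Csf1r stayed called under every alternative run, whereas other genes crossed the threshold. Laptm5 was lost with its next brightest probe set (1.53, adjusted p = 0.0731), with a pseudocount of 1 (adjusted p = 0.062) and without either adult-derived, pluripotent or secondary array (adjusted p = 0.0542 to 0.146). Ptprc was lost without adult-derived replicate 1 (adjusted p = 0.0679). By contrast, Lyz2 and Lyz1 were called with a pseudocount of 20 (adjusted p = 0.0214 and 0.0255) and without the iPS or the ES cell array (0.0301 and 0.0299 for Lyz2, 0.0332 each for Lyz1). Lyz2 was also called with quantile normalization (adjusted p = 0.0474) and a common median (adjusted p = 0.0307). Without adult-derived replicate 1 or 2 the count of all genes went from 1909 to 513 or 817.

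Against pluripotent cells, the adult-derived neurospheres had 1 called gene of the 10, Ptprc, which rose by 2.99 ± 0.46 (adjusted p = 0.00862), against 14.3% of all genes in either direction and 10.9% that rose. Its signals of 90.6 and 40.2 lay above the 3.4 and 3.2 of the pluripotent arrays. Cd68 differed by -1.28 ± 0.39 (adjusted p = 0.0667), with 33.3 ± 11.5 against 86.3 ± 16.0 (SD, n = 2 each). It was called with quantile normalization (adjusted p = 0.0329), a common median (adjusted p = 0.03), a pseudocount of 20 (adjusted p = 0.0445) and all 12 arrays (adjusted p = 0.039). Laptm5 differed by -1.32 ± 0.60 (adjusted p = 0.176). The count of all genes went from 1948 to 586 and 513 without adult-derived replicate 1 and 2, and to 660 without the ES cell array.

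**Figure D4:**
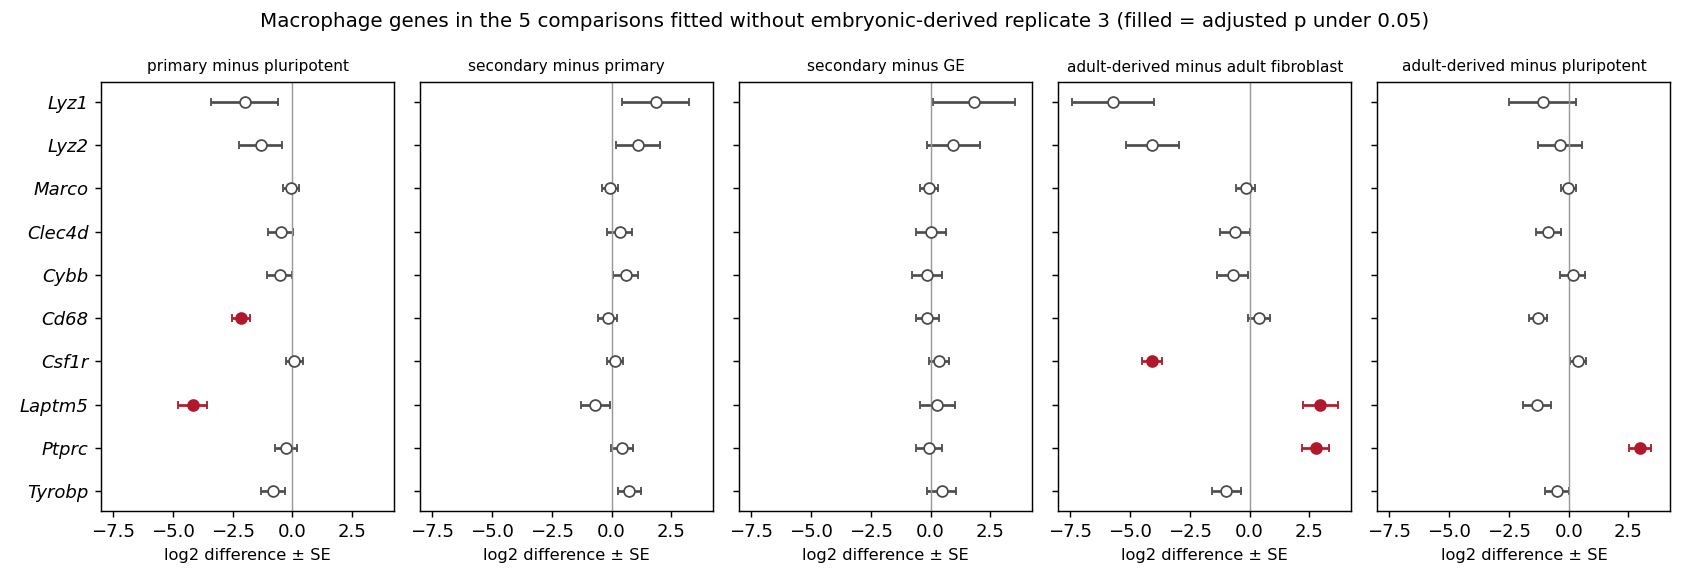
Log2 difference with its standard error (horizontal axis) for each of the 10 genes in the 5 tested comparisons, from the fit of 11 arrays without embryonic-derived replicate 3, with filled points for an adjusted p under 0.05. Filled points are Laptm5 and Cd68 in the first panel, Csf1r, Laptm5 and Ptprc in the fibroblast panel and Ptprc in the pluripotent panel.

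A list of 51 further macrophage genes, 48 of them measured, was read beside the 10. Of the 48, 22 were highest on embryonic-derived replicate 3, against the 4.29% of all 18193 genes. Only 1 lay 4-fold above every other array, against 0.103% of the 13650 genes tested. That gene was Ccl3, a chemokine of activated macrophages, at 38.9 against at most 3.5 elsewhere (2.37). The next were Adgre1 (F4/80, the standard surface marker of mouse macrophages) at 53.6 against at most 11.8 (1.80), Fcer1g (the Fc receptor gamma chain, the adaptor that Clec4d signals through) at 58.2 against at most 14.4 (1.70), and C1qc (a complement subunit made by tissue macrophages) at 20.3 against at most 3.4 (1.59). Between the embryonic-derived arrays 7 of the 48 were 4-fold higher on replicate 3, against 0.227% of the genes tested. The median difference was 0.87 over the 48 and -0.02 over the genes tested.

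Other macrophage genes were dim or peaked elsewhere. On no array did 15 of the 48 reach 20, among them Itgam at 12, Fcgr1 at 14.7, Aif1 at 7.5 and C1qa at 17.4 on embryonic-derived replicate 3. The signals summed over the 48 genes were 3748.8 on embryonic-derived replicate 3, 3682.9 on replicate 4, 6250.9 in adult fibroblasts and 443.5 to 2240.3 on the other 9 arrays. The largest signals in that sum were those of genes also bright in fibroblasts, such as Lgals3, a galectin, at 2602.2 in adult fibroblasts, 1212.6 on embryonic-derived replicate 3 and 1903.6 on replicate 4. Ccl2, a chemokine for monocytes, gave 1256.1, 433.7 and 669.6 on these arrays.

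**Figure D5:**
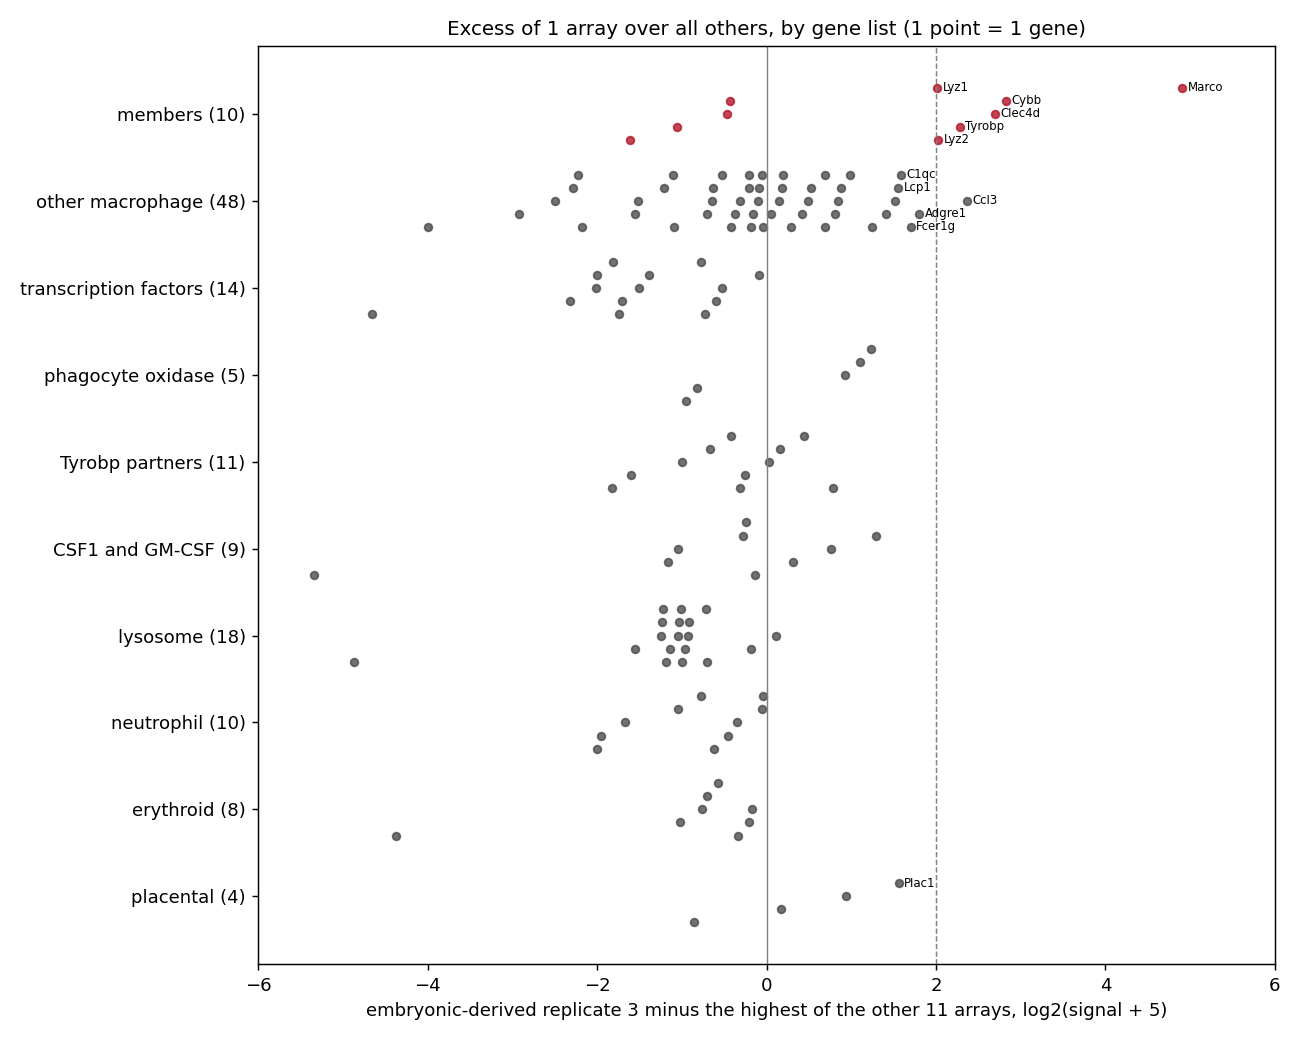
Level on embryonic-derived replicate 3 minus the highest of the other 11 arrays (horizontal axis, log2(signal + 5)) for the 10 genes and for the measured genes of 9 lists, with 1 point per gene, the number of genes in brackets and a dashed line at 4-fold. Outside the 10 genes only Ccl3 passes that line among the lists drawn.

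The regulators and partners of the pathway were described in the same way. Over all 18193 genes 4.29% were highest on embryonic-derived replicate 3, so 0 in a short list is near that share. Of 14 macrophage transcription factors 0 were highest on embryonic-derived replicate 3. Spi1, which encodes PU.1, read 0.9 to 11.6 over the arrays, with 10.6 on embryonic-derived replicate 3 and 11.2 on replicate 4. The nearest of the others were Nr1h3 (LXR alpha) at 13.5, Nfe2 (a factor of blood lineages) at 7.8 and Irf5 (an interferon regulatory factor) at 21.3 on that array. Of 5 other genes of the phagocyte oxidase complex, 3 were highest there, the cytosolic subunits Ncf1 at 31.8 against at most 10.6 and Ncf4 at 21.5 against at most 7.3, and the GTPase Rac2 at 29.7 against at most 13.2. Cyba, the membrane partner of Cybb, was 857 in adult fibroblasts, 545.9 on embryonic-derived replicate 4 and 483 on replicate 3.

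Of 11 partners of Tyrobp and downstream genes, 4 were highest on embryonic-derived replicate 3, all of them under 20 on every array, at 15.2 for Cd300lb, 12.7 for Trem1, 10.9 for Btk and 4.3 for Clec5a. Of 9 genes of the Csf1 and GM-CSF system, 3 were highest there. Csf2rb, the shared receptor chain for GM-CSF, read 33.1 against at most 10.5. Il34, a ligand of Csf1r, read 231.6 on embryonic-derived replicate 3, 109 on replicate 4, 135.1 and 69.2 on adult-derived replicates 2 and 1, and 1.6 to 23.9 elsewhere. Csf2rb2 read 12.2 against at most 8.9. Csf1, the other ligand, was 4142 in adult fibroblasts and 96.8 on embryonic-derived replicate 3. Of 18 lysosomal genes 1 was highest there, Atp6v0d2, a proton pump subunit, at 15.3.

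The lists were also read in the tested comparisons, where the shares called over all genes were 22.2% (primary against pluripotent), 14% (adult-derived against fibroblasts) and 14.3% (adult-derived against pluripotent). Of the 33 macrophage genes tested, 1 rose from pluripotent cells to primary neurospheres (Sirpa, an inhibitory receptor, 2.16 ± 0.51, adjusted p = 0.0235). From adult fibroblasts to adult-derived neurospheres 3 fell, namely Cd53 (a tetraspanin of blood cells, -4.05 ± 0.63, adjusted p = 0.0112), Ccl6 (a chemokine, -3.80 ± 0.66, adjusted p = 0.0139) and Tlr4 (the lipopolysaccharide receptor, -2.17 ± 0.50, adjusted p = 0.0298). Against pluripotent cells 2 rose, Ccl2 (4.07 ± 0.56, adjusted p = 0.00616) and Tlr4 (1.65 ± 0.41, adjusted p = 0.0371). The medians over the 33 were -0.27 against fibroblasts and 0.07 against pluripotent cells, beside 0.21 and 0.14 over all genes.

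In the Csf1 system, with 6 genes tested, Csf1 fell from adult fibroblasts to adult-derived neurospheres (-4.76 ± 0.92, adjusted p = 0.018), as Csf1r did, while Kit, the stem cell factor receptor, rose (4.04 ± 0.55, adjusted p = 0.00782). Against pluripotent cells Il34 (3.23 ± 0.56, adjusted p = 0.0123) and Csf1 (3.14 ± 0.75, adjusted p = 0.0343) rose. Of 4 tested Tyrobp partners and downstream genes, Syk, the kinase behind Tyrobp, fell in primary neurospheres against pluripotent cells (-1.80 ± 0.51, adjusted p = 0.0423). Inpp5d, a phosphatase that dampens that pathway, fell there too (-2.77 ± 0.72, adjusted p = 0.0328) and in adult-derived neurospheres against pluripotent cells (-2.92 ± 0.72, adjusted p = 0.0377). Of 10 tested transcription factors, Runx1 (3.37 ± 0.82, adjusted p = 0.0359) and Maf (2.13 ± 0.56, adjusted p = 0.0451) rose and Mitf fell (-1.78 ± 0.37, adjusted p = 0.022) in adult-derived neurospheres against pluripotent cells. In primary neurospheres Maf rose (4.87 ± 0.56, adjusted p = 0.00214) and Mitf fell (-2.10 ± 0.37, adjusted p = 0.00874), and against fibroblasts both fell in the adult-derived neurospheres (adjusted p = 0.0167 and 0.0482). Of 5 oxidase genes 1, the GTPase Rac1, rose against pluripotent cells in primary (0.88 ± 0.17, adjusted p = 0.0122) and adult-derived neurospheres (1.01 ± 0.17, adjusted p = 0.0116). Of 17 lysosomal genes 1 rose from pluripotent cells to primary neurospheres (Lamp2), 4 fell from fibroblasts to adult-derived neurospheres (Lamp1, Gusb, Lipa and Ctsh), against 5.23% of all genes that fell, and 2 rose against pluripotent cells (Psap and Lamp2). None of the genes of these 5 lists or of the macrophage list was called between secondary and primary or secondary and GE neurospheres, against 0.923% and 1.63% of all genes. At such shares the absence of calls says little about these lists.

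Markers of other blood cells and of placenta also differed between arrays, and their part in the levels of the 10 genes was not tested. The counts of genes highest on embryonic-derived replicate 3 stand against 4.29% of all 18193 genes. In lists this short, 0 is near that share. Of 10 neutrophil genes 0 were highest on embryonic-derived replicate 3, and their summed signal was 1779.7 on embryonic-derived replicate 4, 487.5 on replicate 3 and 29.1 to 221.7 elsewhere. Most of it was Ltf, lactoferrin, a gene also known from epithelia, at 1577.9 and 402.4. S100a8, a calcium-binding protein of neutrophils and monocytes, read 150.4 on replicate 4, 33.9 on replicate 3 and at most 13.7 elsewhere, and the granule genes Mpo and Elane read 8.8 and 10.3 on replicate 3. Of 8 mast cell and basophil genes 0 were highest on replicate 3, with a sum of 20.6 there and 262.2 on replicate 4. Nearly all of the latter was Mcpt8 at 246.5, and the other 7 genes stayed under 20 on every array. Microglia had 1 of 7 highest on replicate 3, Cx3cr1 at 14.1, with P2ry12 at 4.6. Osteoclasts, which share the macrophage origin, had 1 of 8, the gelatinase Mmp9 at 111.9 against at most 27.3.

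Of 9 T and NK cell genes 2 were highest on replicate 3, Cd3g at 71.1 against at most 28.5 and Ncr1 at 4.7 against at most 4. Cd3d read 1.7 there. None of 7 B cell, 9 dendritic cell, 8 erythroid or 5 platelet genes was highest there, against 4.29% of all 18193 genes. In lists this short that is near the share over all genes, and many of these genes never reached 20. The erythroid sum was 5087.4 on adult-derived replicate 1, 1145.6 on replicate 2 and 287.1 on embryonic-derived replicate 3, nearly all of it Hbb-y, an embryonic beta globin. Of 9 blood progenitor genes 1 was highest on embryonic-derived replicate 3, and their sums were 1101.8 there, 1103.1 on embryonic-derived replicate 4, 1283.6 and 794.4 on adult-derived replicates 1 and 2 and 72.8 to 466.8 elsewhere. On the fibroblast-derived arrays most of the sum was Cd34 and Myb. Other genes of the list went the other way. Tal1 read 1.2 to 6.4 on those arrays and 55.3 to 125.2 in primary and secondary neurospheres, and Lmo2 and Gata2 also peaked in primary neurospheres. Of 10 endothelial genes 2 were highest on embryonic-derived replicate 3, led by Cdh5, an adhesion protein of vessels, at 60.1 against at most 21.9. Of 4 placental genes 3 were highest there, and Tpbpa, a marker of spongiotrophoblast, read 1324.5 on embryonic-derived replicate 3, 687.2 on replicate 4 and at most 5.6 elsewhere.

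The genes with profiles most like the mean of the 10 over the 12 arrays were sought among 9999 genes that reached 100. The closest was Ctss (cathepsin S, a protease of antigen-presenting cells), with r = 0.922, and 0.930 without embryonic-derived replicate 3. It read 254.2 on embryonic-derived replicate 3, 125.4 in adult fibroblasts, 60.4 on embryonic-derived replicate 4, 27.7 in iPS cells and 0.3 in GE neurospheres. Next came Mmp13 (a collagenase, r = 0.893), Mmp9 (r = 0.867), Wfdc17 (a small secreted protein of the whey acidic protein family, r = 0.856), AA414768 (r = 0.852), Ceacam9 (r = 0.827), Ceacam15 (r = 0.824), Hoxa10 (r = 0.824) and Tmem106a (r = 0.822). Of the 15 most alike, 14 were highest on embryonic-derived replicate 3, all except Hoxa10, against 3.88% of all genes tested. This count follows largely from the choice of the 10 genes, whose mean is itself highest on that array. Without that array r was 0.44 for Serpinb9g and 0.54 for Ceacam9, against 0.90 for Ap3b1. These are correlations over arrays that share the weight of 1 high array.

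The 10 genes differed in how far each followed the mean of the other 9. The r over 12 arrays was 0.917 for Lyz2, 0.913 for Cybb, 0.907 for Tyrobp, 0.858 for Lyz1, 0.832 for Clec4d, 0.806 for Marco, 0.744 for Csf1r and 0.654 for Cd68. It was 0.365 for Ptprc and 0.303 for Laptm5, the genes that peaked on adult-derived replicate 1 and in iPS cells. With embryonic-derived replicate 3 included, these values follow in large part from the choice of the genes by their signals on that array. Lyz1 and Lyz2, which were not resolved from each other, also each enter the mean used for the other. Without embryonic-derived replicate 3 the values were 0.809 for Lyz2, 0.717 for Lyz1, 0.711 for Cybb, 0.685 for Tyrobp and 0.584 for Csf1r. They were 0.557 for Cd68, 0.549 for Marco, 0.403 for Clec4d, 0.27 for Laptm5 and 0.04 for Ptprc.

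The promoters of the 8 matched genes (250 bases before to 50 after the start, both strands) were searched for letters bound by PU.1. The run GAGGAAGT was in 0 of the 8 and in 3.69% of 27025 genes with a promoter in the table. Shorter runs that overlap it were searched after that result was seen. AGGAAGT was in 3 of the 8 (Lyz1, Lyz2 and Ptprc), against 10.7% of genes. The matches of Lyz1 and Lyz2 lie in stretches that were 86.0% identical, so they are not separate observations. GAGGAA was in 6 of the 8 (Marco, Clec4d, Cybb, Cd68, Laptm5 and Ptprc), against 31.3% of genes. A match shows only that these letters are in this window.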

How the data were processed

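Affymetrix arrays with 45101 probe sets were hybridised with RNA of 12 samples. Per the submitters' processing notes, the authors used MAS5 and version 1.1 of Affymetrix Expression Console. The deposited intensities are linear. Their 2%-trimmed mean was 100 on every array, which hides a change in total RNA, and detection calls were not used here. The number of arrays limits the precision. Probe sets were named through GEO's platform annotation, where 34945 had 1 symbol, 932 several and 9160 none, and the RefSeq table of GRCm38.p6 changed 0 of them.

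From these intensities log2(signal + 5) was computed. A gene was tested if its probe set (annotated to it alone, highest mean) reached 20 on at least 1 array, which left 13650 genes, 6401 of them with several such probe sets. The 7 groups were fitted together with limma 3.58.1 in R 4.3.3 (lmFit, eBayes with an intensity trend, 4 residual and 3.56 prior degrees of freedom, 2-sided) on 11 arrays, without embryonic-derived replicate 3, on which the 10 genes had been chosen. The script was tested on simulated data. An excess is the level on embryonic-derived replicate 3 minus the highest of the other 11 arrays, with no test.

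The genes, lists, comparisons and alternatives were chosen with earlier results of these data known, so no list is independent evidence. The rule for named genes took the 10 genes, for the lists the members with the largest excess and the called ones, the 15 genes most alike in profile and, outside the lists, the 15 with the largest excess. The text names part of these, and other list genes it names (such as Itgam, Lgals3, Cyba, Csf1, Ltf and Hbb-y) were picked after their values were seen.

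The iPS and ES arrays pair by line, since the replicate number marks the same line. Correlations of the arrays' deviations from their group means were 0.252 (pluripotent with primary), 0.0578 (pluripotent with secondary) and 0.425 (primary with secondary). Alternatives were other scalings, pseudocounts and filters, the mean of probe sets, no trend, the line as a block, all 12 arrays and leaving out arrays.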

Additional observations from a re-analysis of the deposited data

How the results depend on the processing

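No tested difference of the 10 genes that was called changed sign under any alternative run for it. The untested excess turned from -0.47 to 1.80 for Csf1r without the fibroblast array and from -0.44 to 0.60 for Cd68 without embryonic-derived replicate 4. For secondary against primary neurospheres (126 genes) a common median gave 60, a pseudocount of 1 15, a pseudocount of 20 263, no filter 75 and all 12 arrays 380, and for secondary against GE (223) a pseudocount of 20 gave 377, a filter at 100 132 and all 12 arrays 531. Adult-derived against pluripotent (1948) gave 2926 with all 12 arrays. Leaving out arrays gave 0 to 130, 9 to 225 and 513 to 2050 genes for these comparisons, 513 to 2152 for adult-derived against fibroblasts (1909) and 896 to 3457 for primary against pluripotent (3035). Of the 10 genes, 5 were called against fibroblasts with a pseudocount of 20, beside 1969 of all 13650 genes. The 5 count Lyz1 and Lyz2 separately, although the pair was not resolved. This count also moved when arrays were left out. Against pluripotent cells 2 were called with quantile normalization, a common median, a pseudocount of 20 or all 12 arrays. Beside them 1597, 2308, 1933 and 2926 of all genes were called in these runs. A filter at 100 removed Ptprc, which read at most 90.6, so the gene called in the main fit was not tested there. Of those still tested 0 were called, beside 1781 of all genes. For primary against pluripotent the count also moved when arrays were left out.

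With the cell line (iPS or ES) as a replicate block, 3861, 167, 330, 2401 and 2623 genes were called (primary against pluripotent, secondary against primary, secondary against GE, adult-derived against fibroblasts and against pluripotent), and no call among the 10 genes changed. A common median moved the median of all genes by over 0.1, to -0.31 for secondary against primary, and the share of calls that were higher from 71.1% to 53.6%, 78.6% to 68.3%, 61.9% to 48.2%, 62.6% to 36.2% and 76.6% to 47.1%, in the same order, so that most calls were lower in the last 2 comparisons and in secondary against GE.

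Genes 4-fold above every other array on embryonic-derived replicate 3 (14) numbered 8 with a common median, 3 with a pseudocount of 20 and 7 with a filter at 100. Without embryonic-derived replicate 4 there were 65, and without it and the fibroblast array 76, 7 of the 10 genes among them, both chosen after seeing the data. Of the 10 genes 3 remained with a common median or a pseudocount of 20. The 76 genes that differed 4-fold between the embryonic-derived arrays became 202 and 28 with pseudocounts of 1 and 20 and 45 with a filter at 100. Signals under 20 lie below the filter, so the order of arrays among them, which some counts of genes highest on 1 array use, is weakly measured.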

Other observations

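Outside the 10 genes and the lists, 7 genes lay 4-fold above every other array on embryonic-derived replicate 3. These were Cytl1 at 80.3 against at most 8.7, Col10a1, a collagen of growth plate cartilage, at 27.7 against at most 1.6, Acod1, the itaconate-making enzyme of activated macrophages, at 58.2 against at most 8.3, 1600012P17Rik at 121.7 against at most 22, Cd52, a surface glycoprotein of leukocytes, at 95.3 against at most 18.5, Ucn3 at 48.8 against at most 7.8, and Serpinb9g at 247 against at most 56.3. Just below the line were Prl7d1, a prolactin family gene of the placenta, at 684.7 against 194 on embryonic-derived replicate 4, and F13a1, a coagulation factor subunit made by monocytes, at 48.9 against at most 11.4. The next highest array was embryonic-derived replicate 4 for Cytl1, Col10a1, Ucn3 and Serpinb9g, and for Cd52 and F13a1 it was that of adult fibroblasts.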
